A study of Mus musculus with 7 samples.

Results

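Fc receptors read antibodies on behalf of macrophages, and 7 of their genes were followed in muscularis macrophages of the mouse small intestine after stroke surgery. They were taken by gene symbol from the table of read counts, and all 7 were found among 17209 listed genes. They comprised the activating receptors for immunoglobulin G Fcgr1, Fcgr3 and Fcgr4, the inhibitory receptor Fcgr2b, the shared signalling chain Fcer1g, the Fc receptor-like gene Fcrls and the neonatal Fc receptor Fcgrt. Total RNA was sequenced in 3 libraries (pMCAO 1 to pMCAO 3) from mice 24 h after pMCAO surgery, which the series title calls stroke, and in 4 libraries (Sham 1 to Sham 4) from mice 24 h after sham surgery. Both groups carry the genotype label C57BL6/J. In both, the muscle layer of the small intestine was peeled off and CX3CR1-GFP+ cells were taken from it by flow sorting, a reporter that the genotype label does not mention. Age and sex are not given in the labels. The Sham titles call the replicates biological and the pMCAO titles do not. The description of pMCAO 3 names a pool, and nothing says whether the other libraries came from single animals. The p-values therefore describe the spread among these libraries, which may be technical.

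Muscularis macrophages are resident cells that lie among the smooth muscle and nerves of the gut wall, where they clear debris and exchange signals with neurons. An activating Fc receptor that binds an immune complex passes the signal through the paired tyrosine motif (ITAM) of the Fcer1g chain, which is phosphorylated by Src family kinases and then recruits the kinase Syk. Fcgr2b carries an inhibitory tyrosine motif (ITIM) in its own tail and recruits the lipid phosphatase SHIP1, encoded by Inpp5d, so the balance of both kinds sets how strongly a cell answers antibody. Fcgrt pairs with beta-2 microglobulin inside the cell and returns immunoglobulin G and albumin from endosomes to the surface. Fcrls has immunoglobulin domains and a scavenger receptor domain, and in the mouse brain it is used as a marker of microglia.

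All positions are those of GENCODE M21 on GRCm38. Fcgr2b (ENSMUSG00000026656, 170958617 to 170976547, minus strand), Fcgr4 (ENSMUSG00000059089, 171018920 to 171029761, plus strand) and Fcgr3 (ENSMUSG00000059498, 171051174 to 171064935, minus strand) are neighbours on chromosome 1. Fcer1g (ENSMUSG00000058715, 171229572 to 171234365, minus strand) lies further along the same chromosome. Fcrls (ENSMUSG00000015852, 87250758 to 87263738) and Fcgr1 (ENSMUSG00000015947, 96282909 to 96293969) are on the minus strand of chromosome 3, and Fcgrt (ENSMUSG00000003420, 45092990 to 45103851) is on the minus strand of chromosome 7. Fcgr3 and Fcgr2b are close paralogs. Of the distinct stretches of 100 bases in the annotated Fcgr3 transcripts, 2.54% also occur in Fcgr2b, so reads that fall there could be counted for either gene. For Fcgr2b, 4.3% of such stretches occur in transcripts of some other gene, and for Fcgr1, Fcgr4, Fcer1g, Fcrls and Fcgrt 0% do. Fcgr2b also overlaps the antisense gene Gm38204 over 155 exonic bases, and whether the counting used strand is not given in the sources used here.

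The promoters of the activating receptors are shown because these genes and the inhibitory Fcgr2b had unlike values in the libraries. Of the 250 bases before the RefSeq start, 187 lie in annotated exons for Fcgr2b and 136 for Fcrls, whose annotated transcripts also start further upstream, so neither window is printed whole. The Fcgr3 window is printed, but it lies wholly inside the gene as GENCODE annotates it. Its annotated transcripts also start further upstream, and 27 of its bases lie in annotated exons. Each run holds the 250 bases before the RefSeq start (GRCm38.p6), 5′ to 3′ on the strand of the gene. The Fcgr1 run is chr3:96293970-96294219, the Fcgr4 run chr1:171018676-171018925 and the Fcgr3 run chr1:171059404-171059653. Capitals mark the letters GAGGAAG, the box bound by the myeloid factor PU.1, and also TTCNNNGAA, the gamma-activated site bound by STAT factors, and the interferon-stimulated element, GAAA, any 2 bases and GAAA again. Each was searched on both strands, and no match overlapped another.
Fcgr1: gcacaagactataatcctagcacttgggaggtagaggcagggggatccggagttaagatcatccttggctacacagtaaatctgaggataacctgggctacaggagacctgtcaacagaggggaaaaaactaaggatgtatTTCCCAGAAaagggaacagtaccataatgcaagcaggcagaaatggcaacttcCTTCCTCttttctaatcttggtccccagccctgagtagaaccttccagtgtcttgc
Fcgr4: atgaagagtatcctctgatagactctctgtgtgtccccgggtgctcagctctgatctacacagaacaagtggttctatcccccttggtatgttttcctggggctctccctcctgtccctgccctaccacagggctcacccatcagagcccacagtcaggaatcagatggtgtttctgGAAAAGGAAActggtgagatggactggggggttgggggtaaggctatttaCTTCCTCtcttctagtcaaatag
Fcgr3: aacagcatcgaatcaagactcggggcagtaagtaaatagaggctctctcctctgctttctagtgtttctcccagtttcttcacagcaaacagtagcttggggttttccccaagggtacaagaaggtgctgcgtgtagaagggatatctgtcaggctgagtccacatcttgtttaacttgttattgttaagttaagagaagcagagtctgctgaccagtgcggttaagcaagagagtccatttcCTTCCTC
Before the Fcrls start the same box lies in this stretch of 30 bases, chr3:87263650-87263679 on the minus strand, also from RefSeq, and it lies inside the gene as GENCODE annotates it.
Fcrls: aagtctgtaaaGAGGAAGgacgtttgcttt

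The PU.1 box was found in 4 of the 7 windows, those of Fcgr1, Fcgr3, Fcgr4 and Fcrls, and not in those of Fcgr2b, Fcer1g and Fcgrt. In Fcgr1 it lay 56 to 50 bases before the RefSeq start, in Fcgr4 23 to 17, in Fcgr3 7 to 1 and in Fcrls 144 to 138. The boxes of Fcgr3 and Fcrls lie inside the genes as GENCODE annotates them. Of 27025 RefSeq promoters, 10.4% held the box in the same window. The gamma-activated site was in the window of Fcgr1 alone, 109 to 101 bases before its start, against 7.18% of all promoters. The interferon-stimulated element was in that of Fcgr4 alone, 73 to 64 bases before its start, against 3.04% of all promoters. A match of letters is a description and not a bound site.

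Libraries held 12685941, 21680302 and 18779472 counts for pMCAO 1 to 3 and 19238209, 22425640, 18873893 and 34432716 counts for Sham 1 to 4. Macrophage genes were high in every library, with a summed level of 18 pan-macrophage genes, Fc receptors left out, of 16656 to 23935 CPM (reads scaled to library size) after pMCAO and 24170 to 31351 CPM after sham surgery, without overlap. Fibroblast markers, all 9 of 9 measured, summed to 106 to 536 CPM after pMCAO and 55.8 to 164 CPM after sham. The 9 of 9 blood endothelial markers summed to 307 to 409 CPM after pMCAO and 94.8 to 262 CPM after sham. Mitochondrial ribosomal RNA took 8.26% to 12.6% of counts after pMCAO and 2.42% to 5.82% after sham. The fibroblast sums overlapped, with pMCAO 2 (106 CPM) below Sham 2 (164 CPM). The macrophage and endothelial sums and the ribosomal RNA share move with the groups. In bulk libraries fewer macrophages and less RNA per macrophage cannot be told apart. B and plasma cell markers (11 of 11) were highest in Sham 1, at 3855 CPM. They were at 622 to 963 CPM after pMCAO and 632 to 1294 CPM in the other sham libraries. Monocyte markers (8 of 8) summed to 1875, 3211 and 1033 CPM in pMCAO 1 to 3. In Sham 1 to 4 their sums were 2699, 1240, 1254 and 1109 CPM, with overlap. Neutrophil (5 of 8 measured, without Ly6g, Mpo and Elane) and mast cell markers (7 of 8) summed to 75.6 to 124 CPM and 69.9 to 146 CPM after pMCAO, and to 86.6 to 124 CPM and 20.8 to 128 CPM after sham. Dendritic cell markers (8 of 8) summed to 176 to 243 CPM after pMCAO and 248 to 317 CPM after sham, without overlap. Large peritoneal macrophage markers (6 of 7, without Gata6) summed to 63.3 to 155 CPM after pMCAO and 41.0 to 66.3 CPM after sham, and 2 of the 6 had groups that did not overlap, with pMCAO higher. The part of these cell markers in the results below was not tested. Levels of Y-linked genes also varied within both groups. Their mean log2 CPM was 5.71 to 7.04 in 4 libraries (pMCAO 2, pMCAO 3, Sham 1 and Sham 3) and -2.40 to 0.85 in the other 3. A stromal score, the mean log2 CPM of the fibroblast and blood endothelial markers, was 3.67 to 4.76 after pMCAO and 2.26 to 3.58 after sham. These ranges do not overlap, so a fit that holds both the score and the group cannot well tell them apart.

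All 7 genes had lower mean levels after pMCAO with TMM scaling, and none passed the test over all genes. The fit was the edgeR quasi-likelihood test with Benjamini-Hochberg adjustment, and every adjusted p below comes from it unless another tool is named. Of all genes, 51.4% had lower means, counted here and below by the sign of the fitted log2 change. The test called 17 of 17209 genes (0.0988%), 12 higher (0.0697%) and 5 lower (0.0291%). The median log2 change of the 7 genes was -0.40, against -0.02 for all genes. At an unadjusted p under 0.05 the list had 3 lower genes, Fcrls, Fcgr1 and Fcgr4, while 6.47% of all genes were lower and 6.97% higher at that level. Only Fcrls among the 7 had groups that did not overlap, as 6.58% of all genes did with pMCAO lower and 5.99% with pMCAO higher. With library factors taken from the pan-macrophage genes, which move the median of all genes to 0.40, Fcgr3 (0.03), Fcgr2b (0.34) and Fcer1g (0.17) had higher means. The number of genes called was 0 without pMCAO 1 (1987 at an unadjusted p under 0.05), 100 without pMCAO 2, 7 without pMCAO 3, 47 without Sham 1, 47 without Sham 2 and 9 without Sham 4.

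**Figure D1:**
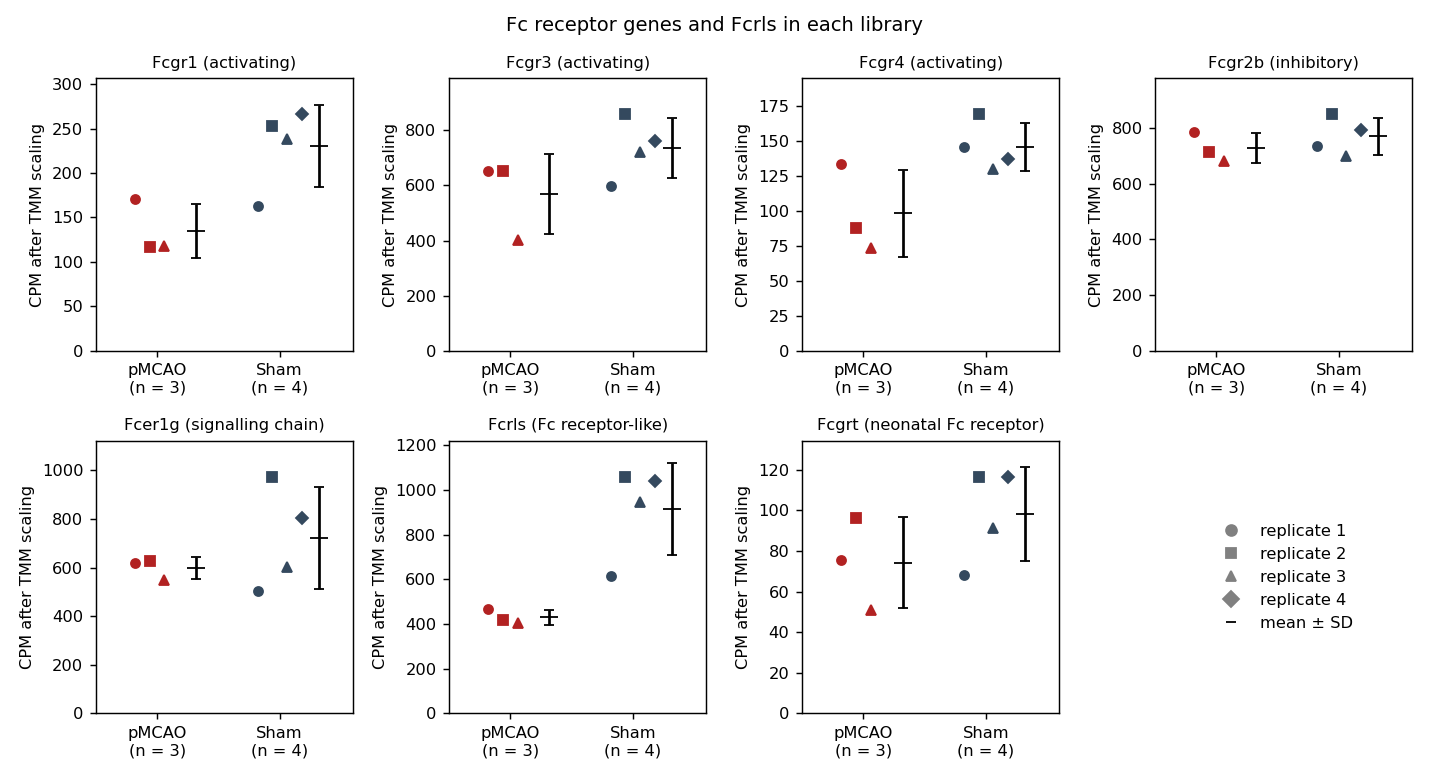
Level of each gene in every library, in CPM after TMM scaling, with pMCAO (red, n = 3) left of Sham (dark, n = 4). Marker shape gives the replicate number and bars give the mean ± SD. Fcrls is the gene whose groups do not overlap, and Fcgr2b has nearly the same mean in both.

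Per length, the order of the genes was the same in both groups. These levels are CPM per kilobase of the union of annotated exons, which understates a gene whose long exons are little used. Fcer1g stood highest, at 684 ± 50.3 after pMCAO and 824 ± 241 after sham (SD, n = 3 and n = 4, as for all means here). Fcgr3 followed at 328 ± 83.3 after pMCAO and 424 ± 62.4 after sham, and then Fcrls at 184 ± 14.1 after pMCAO and 392 ± 87.8 after sham. The ranges of Fcgr3 and Fcrls were apart after pMCAO (232 to 376 against 174 to 200) but overlapped after sham (345 to 495 against 264 to 454). The range of Fcrls lay above that of the inhibitory Fcgr2b in both groups. Fcgr2b was at 126 ± 9.23 after pMCAO and 133 ± 11.3 after sham, over an exon length of 5790 bases. Fcgr4 (78.0 ± 24.8 after pMCAO and 116 ± 13.6 after sham), Fcgr1 (52.2 ± 11.8 after pMCAO and 89.0 ± 17.8 after sham) and Fcgrt (35.3 ± 10.7 after pMCAO and 46.7 ± 11.1 after sham) were the lowest. Among these 3, neighbours in the order overlapped after pMCAO and did not after sham, while Fcgr2b and Fcgr4 overlapped after sham and did not after pMCAO. Together the 7 genes took 0.268%, 0.266% and 0.217% of counts in pMCAO 1 to 3 and 0.287%, 0.444%, 0.360% and 0.414% in Sham 1 to 4.

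Among the activating receptors the high-affinity receptor Fcgr1, which binds immunoglobulin G even without an immune complex, differed most. It was at 170, 117 and 118 CPM in pMCAO 1 to 3, against 163, 253, 239 and 266 CPM in Sham 1 to 4. Sham 1 lay just below pMCAO 1, and every other sham library lay above all pMCAO libraries. The log2 change was -0.77 (SE 0.21, 95% confidence interval -1.22 to -0.32, adjusted p = 0.149). DESeq2, which called 476 of all 17209 genes, called it too (adjusted p = 0.0343), as did limma-voom with sample quality weights (0.0480), which called 818. Scaled by the pan-macrophage genes it was -0.34 (SE 0.25). A fit that also held the stromal score gave -1.05 (SE 0.40, adjusted p = 0.891).

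Fcgr4, an activating receptor of intermediate affinity that is restricted to myeloid cells in mice, was at 133, 87.4 and 73.6 CPM in pMCAO 1 to 3. In Sham 1 to 4 it was at 146, 169, 129 and 137 CPM. Only pMCAO 1 reached into the sham range. Its log2 change was -0.57 (SE 0.21, interval -1.02 to -0.12, adjusted p = 0.266). Without pMCAO 1 it was -0.85 and without pMCAO 3 it was -0.40. Within the libraries of low Y-linked level, where pMCAO 1 is the only pMCAO library, it was -0.21. It was -0.29 (SE 0.18) with sample quality weights, -1.09 (SE 0.37) with the stromal score in the fit and -0.17 (SE 0.25) with factors from the pan-macrophage genes.

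Fcgr3, the low-affinity activating receptor for immune complexes, was the most abundant of the activating receptors. It was at 654, 652 and 402 CPM in pMCAO 1 to 3, against 598, 859, 722 and 763 CPM in Sham 1 to 4. The groups overlapped, with pMCAO 3 alone below all sham libraries. Its log2 change was -0.37 (SE 0.20, interval -0.81 to 0.07, adjusted p = 0.448), and without pMCAO 3 it was -0.17 (SE 0.18).

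The inhibitory receptor Fcgr2b showed the smallest difference of the 7. It was at 788, 716 and 684 CPM in pMCAO 1 to 3, against 736, 851, 702 and 792 CPM in Sham 1 to 4, and the groups overlapped. Here the log2 change was -0.08 (SE 0.16, adjusted p = 0.867), and the interval of -0.42 to 0.26 holds changes in either direction. It was -0.21 without scaling factors and -0.29 (SE 0.31) with the stromal score in the fit, and 0.34 (SE 0.24) with factors from the pan-macrophage genes. Some endothelial cells also carry Fcgr2b, and the blood endothelial markers were higher in the pMCAO libraries as given above. Their part in the Fcgr2b values was not tested.

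**Figure D2:**
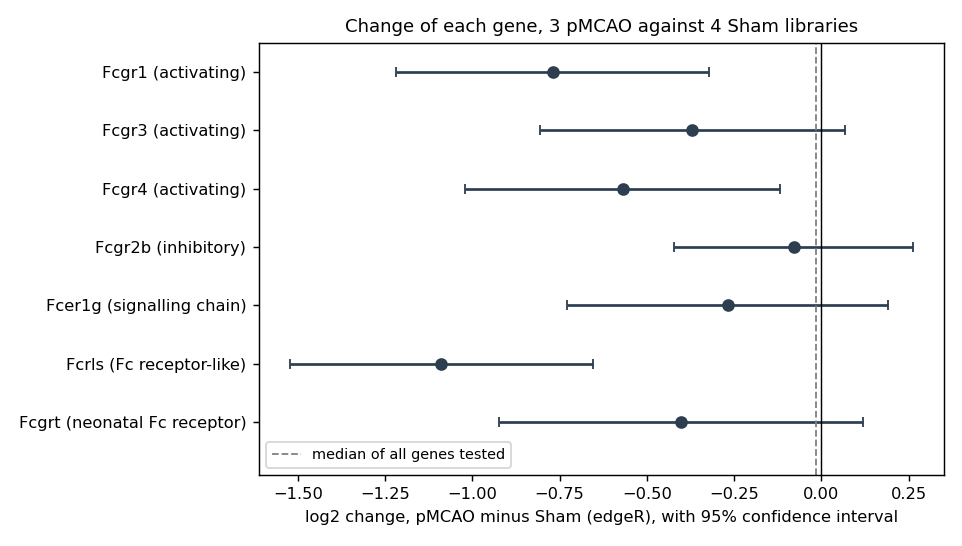
Log2 change of each gene (pMCAO minus Sham, 3 against 4 libraries, TMM scaling) from the edgeR fit, with 95% confidence intervals. The dashed line is the median of all genes at -0.02. The intervals of Fcgr1, Fcgr4 and Fcrls lie below 0 before adjustment, and Fcgr3, Fcgr2b and Fcer1g turn to the other side with factors from pan-macrophage genes.

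The balance of activating and inhibitory receptors was read within each library, where scaling between libraries plays no part. The counts of Fcgr1, Fcgr3 and Fcgr4 together were 1.21, 1.20 and 0.870 times those of Fcgr2b in pMCAO 1 to 3, against 1.23, 1.51, 1.55 and 1.47 times in Sham 1 to 4. The ratio was lower in every pMCAO library than in every sham library, with pMCAO 1 and Sham 1 close together. How many other genes keep the groups apart when divided by Fcgr2b was not counted, for this or the ratios below. With TMM scaling Fcgr2b changed by -0.08, and 17 of 18 other pan-macrophage genes had lower means, at a median of -0.38. Whether the lower ratios are particular to activating receptors was not tested. The mean log2 ratio was 0.11 ± 0.27 after pMCAO and 0.52 ± 0.15 after sham, a difference of -0.41, and as a sum over genes chosen with earlier results known it has no test. Per base of exon the ratios were 2.85 to 4.03 after pMCAO and 4.12 to 5.04 after sham, a log2 difference of -0.40. The difference was -0.25 without pMCAO 3, and -0.44 and -0.29 within the libraries of high and of low Y-linked level.

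Each activating receptor was also set against Fcgr2b alone, in 3 two-sided exact permutation tests over libraries, which for 4 against 3 cannot go below p = 0.0571. These genes too were chosen with earlier results known, so the p-values describe the libraries and are not independent support. Fcgr1 was 0.216, 0.163 and 0.173 times Fcgr2b in pMCAO 1 to 3, against 0.222, 0.297, 0.340 and 0.336 times in Sham 1 to 4. The groups did not overlap, and the exact p was 0.0571, the smallest possible (0.0857 adjusted over the 3 ratios), at a log2 difference of -0.69. Fcgr4 was 0.169, 0.122 and 0.108 times Fcgr2b in pMCAO 1 to 3, against 0.198, 0.199, 0.185 and 0.173 times in Sham 1 to 4. These did not overlap either, with the same exact p of 0.0571 (0.0857 adjusted) at a log2 difference of -0.53. Fcgr3, the close paralog, was 0.589 to 0.910 times Fcgr2b after pMCAO, with pMCAO 3 the lowest, against 0.812 to 1.03 times after sham, with Sham 1 the lowest. Its groups overlapped, with an exact p of 0.171 at a log2 difference of -0.31.

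**Figure D3:**
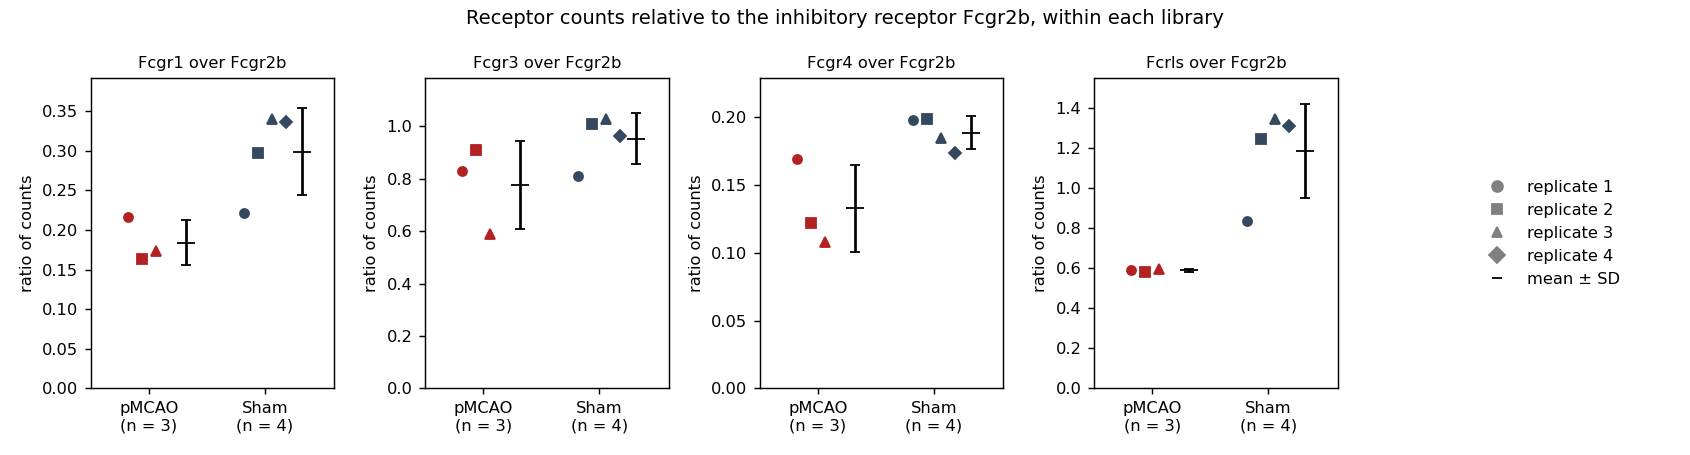
Counts of Fcgr1, Fcgr3, Fcgr4 and Fcrls divided by those of Fcgr2b in each library, pMCAO (red, n = 3) left of Sham (dark, n = 4), with the mean ± SD. The groups are apart for Fcgr1, Fcgr4 and Fcrls and overlap for Fcgr3. How many other genes are apart when divided by Fcgr2b was not counted. Sham 1 is the sham library nearest to pMCAO for Fcgr1 and Fcrls.

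Fcer1g, the chain that activating receptors need for surface expression and signalling, was at 618, 628 and 548 CPM in pMCAO 1 to 3. In Sham 1 to 4 it was at 503, 974, 600.3 and 804 CPM. The pMCAO values lay close together and inside the wide sham range. Fcer1g had a log2 change of -0.27 (SE 0.21, interval -0.73 to 0.19, adjusted p = 0.615). It was -0.41 without Sham 1, -0.09 without Sham 2 and 0.09 (SE 0.31) within the libraries of high Y-linked level. Within those of low level, where pMCAO 1 is the only pMCAO library, it was -0.53. With the stromal score in the fit it was -0.62 (SE 0.38). Relative to the summed counts of the activating receptors, Fcer1g stood at 0.646 to 0.922 after pMCAO and 0.551 to 0.760 after sham, with overlap.

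Fcrls showed the largest difference of the 7. It was at 468, 416 and 407 CPM in pMCAO 1 to 3, against 617, 1060.1, 944 and 1039 CPM in Sham 1 to 4. All pMCAO libraries lay close together and below every sham library, and Sham 1 was the lowest of the sham libraries. The mean was 430.3 ± 32.9 CPM after pMCAO and 915 ± 205 CPM after sham, a fold of 0.470. The log2 change was -1.09 (SE 0.20, interval -1.52 to -0.65), with an adjusted p of 0.0537, just outside the threshold of 0.05, and by p it ranked 30 among 17209 genes. In the authors' deposited table its log2 change is -1.28 with an FDR of 0.0554.

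The call on Fcrls depended on the setting while its direction did not, in 21 other settings. It passed with DESeq2 (adjusted p = 0.000120), limma-voom (0.0409), sample quality weights (0.00279), no scaling factors (0.0374), genes of at least 5 CPM (0.0308), thinned counts (0.0440) and without Sham 1 (0.0124). Over all genes these settings called 476, 35, 818, 29, 76, 35 and 47, in the same order. Within the libraries of high Y-linked level, 2 pMCAO against 2 sham, the log2 change was -0.92 (SE 0.33). Within those of low level, 1 pMCAO against 2 sham, it was -1.18. With factors from pan-macrophage genes, in which the median of all genes is 0.40, it was -0.65 (SE 0.25, adjusted p = 0.152). A fit that also held the stromal score gave -1.25 (SE 0.38, adjusted p = 0.879). Relative to Fcgr2b, Fcrls stood at 0.594, 0.581 and 0.595 in pMCAO 1 to 3, against 0.838, 1.25, 1.35 and 1.31 in Sham 1 to 4.

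Other genes shared by microglia and tissue macrophages were mixed. Of 12 measured, 0 passed the edgeR test (3 lower and 1 higher at an unadjusted p under 0.05, and 2 called by DESeq2), 9 lay lower and 3 higher by mean, at a median log2 change of -0.24 (0.17 scaled by the pan-macrophage genes, with 1 called). Over all 17209 genes, 6.47% were lower and 6.97% higher at an unadjusted p under 0.05. Of these genes DESeq2 called 476 and the fit with pan-macrophage scaling 169. Tmem119, a microglial membrane protein, was at 14.4 ± 2.34 CPM after pMCAO and 33.7 ± 12.9 CPM after sham (log2 change -1.23, SE 0.31, adjusted p = 0.132). Cst3, the protease inhibitor cystatin C, was at 1092 ± 377 CPM after pMCAO and 1867 ± 418 CPM after sham (-0.77, adjusted p = 0.216). Sparc, a matrix glycoprotein that fibroblasts also make, was at 93.8 ± 30.03 CPM after pMCAO and 42.5 ± 20.9 CPM after sham (1.14, adjusted p = 0.162). The purinergic receptor P2ry12, a further microglial marker, was at 252 ± 60.4 CPM after pMCAO and 258 ± 30.1 CPM after sham, with a log2 change of -0.04 (SE 0.19). In 3 of the 12, Tmem119, P2ry13 (log2 change -0.44) and Olfml3 (-0.33), the groups did not overlap, with pMCAO lower. In 0 they did not overlap with pMCAO higher. Of all genes, 6.58% did not overlap with pMCAO lower and 5.99% with pMCAO higher. P2ry12, P2ry13 and Olfml3 were named after their values were seen.

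Fcgrt was the least abundant of the 7 per length. It was at 75.5, 96.3 and 51.2 CPM in pMCAO 1 to 3, against 68.2, 117, 91.5 and 117 CPM in Sham 1 to 4, and the groups overlapped. The log2 change was -0.40 (SE 0.24, interval -0.92 to 0.12, adjusted p = 0.494), and it was -0.0023 with factors from the pan-macrophage genes, -0.63 without pMCAO 2 and -0.19 without pMCAO 3. It was -0.11 (SE 0.36) within the libraries of high Y-linked level. Within those of low level, where pMCAO 1 is the only pMCAO library, it was -0.64. Its partner B2m was at 4257 ± 318 CPM after pMCAO and 4831 ± 1475 CPM after sham (log2 change -0.18, SE 0.23). The ratio of Fcgrt to B2m counts was 0.0126 to 0.0235 after pMCAO and 0.0136 to 0.0279 after sham, with overlap.

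The fold changes in the authors' deposited table were lower than 0 for all 7 genes and, as here, none of their FDR values was under 0.05. In the authors' deposited table the log2 changes are -0.85 for Fcgr1, -0.76 for Fcgr3, -0.80 for Fcgr4, -0.22 for Fcgr2b, -0.75 for Fcer1g and -0.94 for Fcgrt. FDR values there are 0.178 for Fcgr1, 0.204 for Fcgr3, 0.227 for Fcgr4, 0.630 for Fcgr2b and 0.185 for both Fcer1g and Fcgrt. Each of the 7 lies further below 0 there than here, where Fcgr3 was at -0.37, Fcer1g at -0.27 and Fcgrt at -0.40. Unadjusted p-values of the authors' test are under 0.05 for every member except Fcgr2b (0.337). With edgeR here that held only for Fcrls, Fcgr1 and Fcgr4. The reason for these differences was not tested. Fcrls had the lowest log2 change and Fcgr2b the one nearest to 0 both here and in the authors' deposited table.

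In the pathway below the receptors 0 genes of the lists passed over all genes in the edgeR test with TMM scaling. Each list median is also given scaled by the pan-macrophage genes, where the median of all genes is 0.40. Of all 17209 genes, DESeq2 called 476. It called 1 of the ITAM signalling genes, 3 of the paired receptors and 2 of the ITIM receptors, and 0 in the other pathway lists. Of 29 kinases, adaptors and enzymes of activating ITAM signalling, 18 had lower and 11 higher means, with a median log2 change of -0.18 against -0.02 for all genes, and 0.23 scaled by the pan-macrophage genes. At an unadjusted p under 0.05, 6 were lower and 1 higher. Over all genes 6.47% were lower and 6.97% higher at that level, the shares to set beside each list below. Plcg2, the phospholipase that raises calcium, was at 62.3 ± 4.08 CPM after pMCAO and 99.8 ± 6.27 CPM after sham, without overlap (log2 change -0.68, SE 0.17, adjusted p = 0.127). Pik3cd, a catalytic subunit of phosphoinositide 3-kinase, was at 104 ± 24.2 CPM after pMCAO and 158 ± 10.8 CPM after sham (-0.60, adjusted p = 0.197). Syk and Lyn, the kinases that start the signal, had log2 changes of -0.22 (SE 0.19) and -0.21 (SE 0.17).

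Of 17 genes of inhibitory signalling, 9 had lower and 8 higher means, with a median of -0.07 (0.35 scaled by the pan-macrophage genes). At an unadjusted p under 0.05, 3 were lower and 3 higher. Csk, the kinase that restrains Src family kinases, was at 47.7 ± 13.6 CPM after pMCAO and 80.6 ± 13.5 CPM after sham (log2 change -0.76, SE 0.23, adjusted p = 0.192). The phosphatase Ptpn12 was at 191 ± 17.2 CPM after pMCAO and 139 ± 21.6 CPM after sham (0.46, SE 0.17, adjusted p = 0.268). Inpp5d, the phosphatase that Fcgr2b recruits, was at 306 ± 4.44 CPM after pMCAO and 320 ± 34.4 CPM after sham (-0.07, SE 0.16). Syk, Lyn and Inpp5d fall outside the rule for named genes and were added for their place in the pathway after their values were seen.

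Of 25 genes of the phagocytic actin machinery, 22 had lower and 3 higher means, with a median log2 change of -0.25 (0.15 scaled by the pan-macrophage genes) and 0 past the test (2 lower and 1 higher at an unadjusted p under 0.05). Coro1a, an actin-binding coronin, was at 117 ± 65.2 CPM after pMCAO and 194 ± 7.03 CPM after sham (-0.73, adjusted p = 0.289). Was, the nucleation-promoting factor of the Wiskott-Aldrich syndrome, was at 50.6 ± 9.02 CPM after pMCAO and 70.5 ± 10.8 CPM after sham (-0.48, adjusted p = 0.328). Abi1, a subunit of the WAVE complex, was at 244 ± 28.5 CPM after pMCAO and 181 ± 41.6 CPM after sham (0.43, adjusted p = 0.348). Of 6 NADPH oxidase genes, 4 had lower means and the median was -0.41 (-0.04 scaled by the pan-macrophage genes), with 1 lower at an unadjusted p under 0.05. Its members with the smallest p were Ncf4 (-0.83, adjusted p = 0.215), Cyba (-0.77, 0.452) and the proton channel Hvcn1 (-0.77, 0.582).

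Paired receptors were spread in both directions. Of 16 measured ITAM adaptors and their partner receptors, 10 had lower means, with a median log2 change of -0.24 (0.11 scaled by the pan-macrophage genes) and 0 past the test (6 lower and 2 higher at an unadjusted p under 0.05). The C-type lectin Clec4d, which signals through Fcer1g, was at 29.9 ± 14.1 CPM after pMCAO and 10.1 ± 6.07 CPM after sham (1.57, SE 0.42, adjusted p = 0.145). Pilrb1 (-1.17, adjusted p = 0.162) and Pilrb2 (-0.91, adjusted p = 0.169) are paralogs, and how far their reads can be told apart was not measured here. Of 18 measured ITIM receptors, 12 had lower means and the median was -0.03 (0.36 scaled by the pan-macrophage genes), with 5 lower and 1 higher at an unadjusted p under 0.05. Cd72 was at 30.7 ± 4.58 CPM after pMCAO and 65.0 ± 10.2 CPM after sham (-1.08, SE 0.21, adjusted p = 0.0611), Pilra at 40.9 ± 11.6 CPM after pMCAO and 81.9 ± 13.2 CPM after sham (-1.002, adjusted p = 0.112), and Cd22, a sialic acid-binding lectin best known from B cells, at 14.6 ± 4.50 CPM after pMCAO and 26.7 ± 8.26 CPM after sham (-0.86, adjusted p = 0.256). Of 10 measured genes of other immunoglobulin receptors, 6 had lower means and the median was -0.15 (0.22 scaled by the pan-macrophage genes), with 1 lower and 1 higher at an unadjusted p under 0.05. Those with the smallest p were Fcrla (-1.65, adjusted p = 0.300), Fcmr (1.64, 0.370) and Ms4a2 (-1.24, 0.651), with no group mean above 8.35 CPM.

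**Figure D4:**
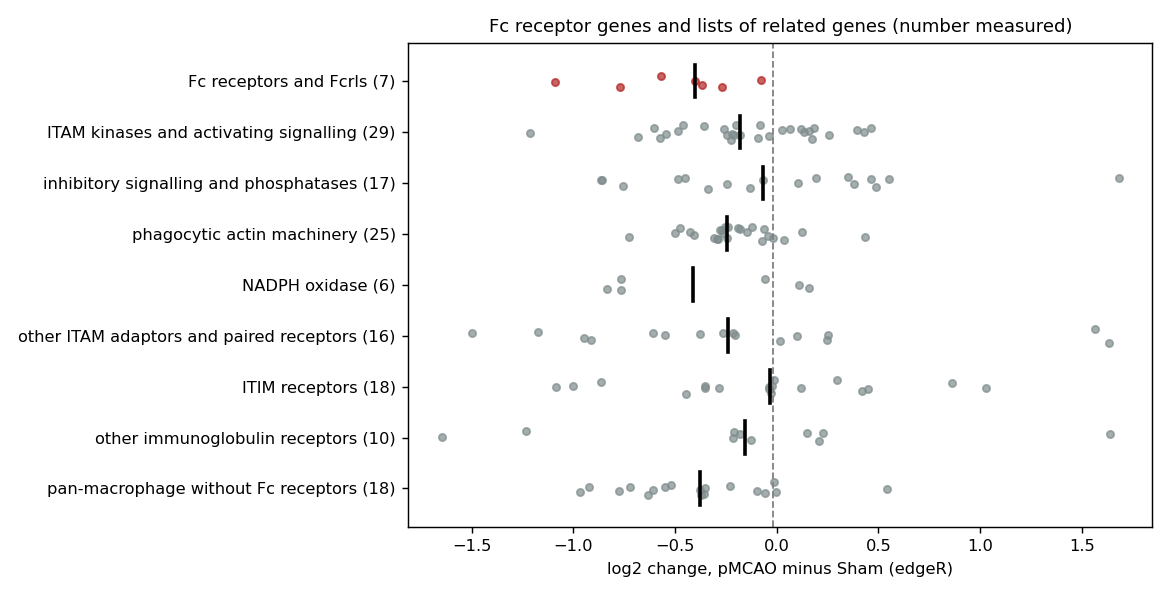
Log2 change (pMCAO minus Sham, TMM scaling) of each measured gene, for the Fc receptor genes (red) and lists of related genes (grey), with the number measured in brackets. Black bars are list medians and the dashed line is the median of all genes at -0.02. The 7 Fc receptor genes have a median of -0.40 and the 18 other pan-macrophage genes one of -0.38, both with TMM scaling.

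The other pan-macrophage genes lay about as low as the Fc receptors. Of 18 measured, 17 had lower means, 0 passed the edgeR test (8 lower and 1 higher at an unadjusted p under 0.05, and 3 called by DESeq2) and the median log2 change was -0.38. Over all 17209 genes, 6.47% were lower and 6.97% higher at that unadjusted level, and DESeq2 called 476. In 4 of the 18 the groups did not overlap with pMCAO lower, as in 6.58% of all genes. The C1q chains, which start the classical complement pathway on antibody, had the smallest p. C1qa was at 279 ± 76.9 CPM after pMCAO and 546 ± 104 CPM after sham (-0.97, SE 0.22, adjusted p = 0.0952), while C1qb (-0.92, adjusted p = 0.146) and C1qc (-0.78, adjusted p = 0.186) were next. The summed level of this list moved with the groups, and its part in the receptor differences was not tested.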

How the data were processed

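Libraries came from 2.0 ng of total RNA, from which ribosomal RNA was removed by cleavage, per the labels' protocols. The deposited table holds whole read counts per gene, which come from the authors; the submitters' processing notes name STAR, featureCounts, limma and the build GRCm38 (mm10). Which versions and strand setting were used is not given in the sources used here. The deposited CPM values, the authors' log2 fold changes, p-values and FDR come from the same table. Its identifiers matched GENCODE M21 on the same chromosome for 99.5%, which gave positions and exon lengths.

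From the counts, edgeR 4.0.16 in R 4.3.3 fitted group alone over 7 libraries (TMM, robust quasi-likelihood test, two-sided, Benjamini-Hochberg over 17209 genes, threshold 0.05). CPM values are after TMM scaling. The alternatives used DESeq2 1.42.0 and limma 3.58.1. The floor of 3 counts was 0.141 to 0.256 CPM after pMCAO and 0.0825 to 0.154 CPM after sham, for counting error alone. The genes named were the 7 receptors, the 3 genes of smallest p in each list, the 3 genes nearest in profile to each receptor, and neighbours within 50 kb, with exceptions marked where they occur; some genes that the rule names are not reported here. Members and lists were chosen with earlier results of these data known. The split by Y-linked level was chosen after seeing the data.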

Additional observations from a re-analysis of the deposited data

How the results depend on the processing

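Of the 7 genes, Fcgr1, Fcgr4, Fcrls and Fcgrt kept their direction in all 21 other settings. Fcgrt was at only -0.0023 (SE 0.23) with factors from pan-macrophage genes. Fcgr3 (0.026), Fcgr2b (0.34) and Fcer1g (0.17) turned with factors from pan-macrophage genes, and Fcer1g (0.092) within libraries of high Y-linked level, none past the threshold; the factors scale macrophage genes to a common level by construction. Calls were gained for Fcgr1 with DESeq2 (-0.75) and sample quality weights (-0.65), and for Fcrls with DESeq2 (-1.07), limma-voom (-1.07), quality weights (-1.08), no scaling (-1.22), genes of at least 5 CPM (-1.08) and thinning (-1.09). Fewer genes are tested in the last 2, and the unadjusted p of Fcrls differs there too. The cause of the gained calls was not tested. Leaving out libraries gave log2 changes of -1.24 to -1.01 for Fcrls and -0.97 to -0.67 for Fcgr1, and a ratio difference of -0.49 to -0.25, which was -0.69 for Fcgr1 alone over Fcgr2b. The number of genes called, 17, was 29 without scaling, 169 with factors from pan-macrophage genes, 76 over genes of at least 5 CPM, 476 with DESeq2, 35 with limma-voom, 818 with quality weights, 35 after thinning, 9 with Y-linked level and 0 with the stromal score as covariates (943 at an unadjusted p under 0.05), 1 and 9 within libraries of high and low Y-linked level, and 0 to 100 leaving out libraries. With the replicate number as a block over 3 pairs it was 21, Fcrls was at -0.99 and the ratio difference at -0.40, and the block changed no call among the 7 genes. Deviations of same-numbered libraries correlated at -0.11, 0.01 and 0.18. Differently numbered libraries were not compared, so whether the numbers pair libraries is not known. Counts of 883 or more per receptor and library leave the spread between libraries, not depth, as the main limit.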

Other observations

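Chromosomal neighbours of the receptors within 50 kb were measured for 28 genes outside the list of 7. Of these, 23 had a fitted log2 change below 0, against 51.4% of all genes, and 0 passed the edgeR test with Benjamini-Hochberg adjustment (2 at an unadjusted p under 0.05). Rcn3, a calcium-binding protein of the secretory pathway 0.769 kb from Fcgrt, had a log2 change of -0.04 (SE 0.48), against -0.40 for Fcgrt.

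The genes with the profile nearest to each receptor over the 7 libraries were found among 11587 other genes of at least 5 CPM, by the root mean square difference of log2 CPM centred on each gene's mean. Nearest to Fcrls were Kat2a, a histone acetyltransferase (difference 0.11, log2 change -1.22, edgeR adjusted p = 0.0718), Ebi3, a subunit of interleukin-27 (0.12, -0.98, 0.192), and Rbm19 (0.12, -0.90, 0.309). Nearest to Fcgr1 were the class I-like gene H2-M3 (0.06), Uqcrh, a subunit of respiratory complex III (0.07), and Mrpl55 (0.09). Nearest to Fcgr2b were Ndor1 (0.06), Imp4 (0.06) and Rab7, a GTPase of late endosomes (0.06). Nearest to Fcgr3 was the early endosome GTPase Rab5c (0.06), to Fcgr4 Eif2b4 (0.05), to Fcer1g the lysosomal nuclease Dnase2a (0.08) and to Fcgrt the ribosomal protein gene Rplp2 (0.08). The points share their libraries, and likeness is given as a description.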
